A study of Mus musculus with 12 samples.

Results

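The genes followed here are those whose expression differed in the same direction between SHP knockout and wild-type mouse islets on each of 2 diets. SHPKO minus WT differences were averaged over chow and western diet for 8875 genes detected on all 3 arrays of at least 1 group. Genes of digestive enzymes and of the Reg, Klk1b, Prss and Try families, 34 in all, were set aside, and 3889 others had opposite signs on the diets. The remaining 4952 genes were the members. Of these, 107 passed the test of the averaged difference, 60 higher and 47 lower in SHPKO (limma, adjusted p below 0.05 over all genes tested and at least 1.5-fold). With set-aside and opposite-sign genes included, 160 of the 8875 genes tested passed (1.8%), 0.924% higher and 0.879% lower; with set-aside genes left out these shares were 1.45%, 0.916% and 0.532%. Membership itself required agreement in sign, so that agreement is no result, and a difference near 0 on 1 diet still counted.

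Expression was measured on 12 Illumina beadchips, 3 per group. All mice were males of the strain C57Bl/6Hsd aged 10 months, and islets were freed from the pancreas by collagenase perfusion. The WT_Chow and SHPKO_Chow groups ate a control chow, and the WT_WD and SHPKO_WD groups ate a western diet for 6 months from the age of 4 months; SHPKO mice lacked SHP and WT mice carried no alteration named in the labels. Equal amounts of RNA from 5 to 9 mice were pooled per group and run in triplicate, read here as 3 arrays of 1 pool, so p-values measure the spread between arrays of a pool and not between mice.

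SHP, the product of Nr0b2, is an orphan nuclear receptor without a DNA-binding domain. It binds other nuclear receptors, among them Nr5a2 and Hnf4a, and represses the genes they drive, and in liver it is induced by bile acids through Nr1h4. In the exocrine pancreas Nr5a2 works beside the PTF1 complex, in which Ptf1a, a class I helix-loop-helix protein and Rbpjl bind the promoters of acinar genes. An islet preparation holds beta, alpha, delta and PP cells together with some acinar, vascular, stromal and immune cells.

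The Nr0b2 probe lay in the background on all 12 arrays, at 4.49 ± 0.06 in WT_Chow, 4.40 ± 0.04 in SHPKO_Chow, 4.40 ± 0.04 in WT_WD and 4.36 ± 0.01 in SHPKO_WD (log2 intensity, mean ± SD, n = 3). The targeted gene thus gave no check of the genotype labels, and no fold is given. Islet markers were abundant in every group, with Ins2 at 14.53 to 14.56 and Pdx1 at 9.96 to 10.05 (group means). Digestive enzyme transcripts were abundant as well. The summed linear signal of 21 of them was 247000 to 260000 on the WT_Chow arrays and 187000 to 205000 on the WT_WD arrays, against 33300 to 37700 in SHPKO_Chow and 32000 to 36100 in SHPKO_WD. Of the 34 set-aside genes, 31 passed the test lower in SHPKO and 1, the trypsin-like 1810009J06Rik, passed it higher.

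The 107 genes were not all shared to the same degree. The genotype difference passed the threshold on each diet taken alone for 43 of them, 7 higher and 36 lower, whereas 74 of all 8875 genes tested (0.834%) did so. A further 21 passed on chow alone, 36 on western diet alone and 7 on neither diet alone; on these diets 2.11% and 3.17% of all genes tested passed. The size of the difference itself differed between the diets for 38 of the 107 (interaction, limma adjusted p below 0.05), against 2.14% of all genes tested. Among these 38, 27 were larger on western diet and 11 on chow. No interaction passed for 43 of the 47 lower genes and for 26 of the 60 higher genes, a contrast that was not itself tested. For 30 of the 60 higher genes the difference on 1 diet was under 0.25 on the log2 scale, 27 of them on chow. Another scaling shifted this balance. With arrays centred on their median over all probes in place of quantile normalization, 143 members were higher and 37 lower, and the median of all genes stood at 0.15; centred on the tested genes, with a median of -0.01, the numbers were 32 and 50.

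**Figure D1:**
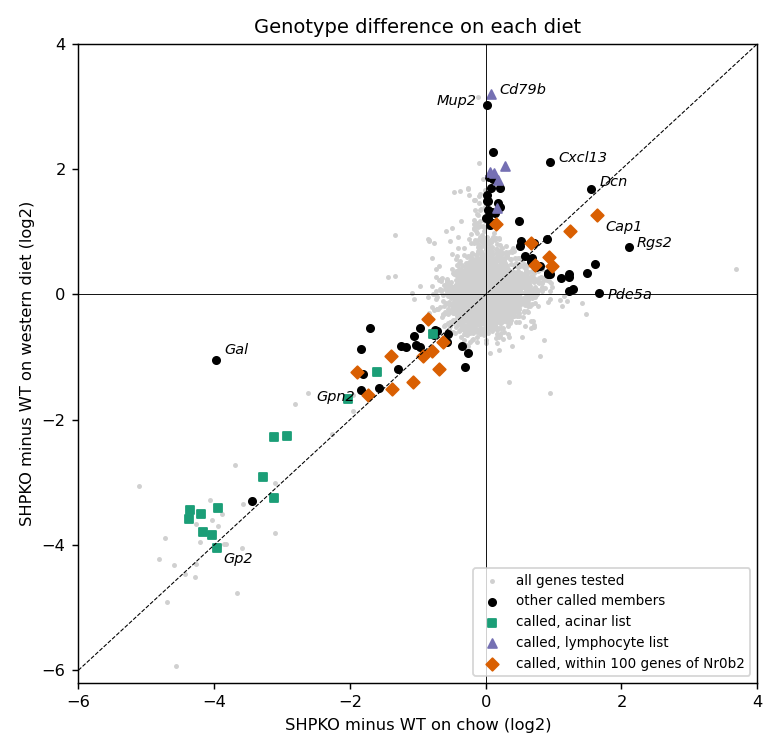
SHPKO minus WT on chow (x axis) and on western diet (y axis), both log2, for all genes tested in grey and the 107 called members in black or colour; the dashed line marks equal differences on the diets. Acinar list members lie near the line from -0.78 to -4.36 on chow, while Cd79b and Mup2 lie near 0 on chow and above 3 on western diet.

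For 51 of the 107 genes, 13 higher and 38 lower, the 6 SHPKO arrays did not overlap the 6 WT arrays, which held for 1.92% of all genes tested. The genotypes did not overlap within either diet for 64 of the 107, against 5.43% of all genes tested. The 107 were chosen by a test of this difference on the same arrays, so their larger shares follow from the choice. Absence of overlap within each diet was also a condition for naming the largest rises and falls below. When each pool was taken as 1 value, with an additive model of genotype and diet, 21 members passed, 2 higher (Dcn and Cap1) and 19 lower, and 0.541% of all genes passed, 0.0225% higher and 0.518% lower. That fit has only 4 values and 1 residual degree of freedom, which limma moderates across genes. Its residual is the difference in genotype effect between the diets. Genes with unequal effects on the diets therefore tend to fail it, and genes with equal effects tend to pass. With 1 pool per group it measures no spread between pools or mice.

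The largest shared falls were in proteins of the acinar cell other than its enzymes. Of 20 tested genes of the acinar list, 14 fell, 0 rose and 6 did not pass, and the 14 passed on both diets. Among the 14, Erp27, Rbpjl, Ptf1a and Aqp12 passed the detection filter only through the WT groups and are lower by selection. The counts and the list medians share this limit. The median difference of the list was -2.6, or -3.0 on chow and -2.3 on western diet, where the median of all genes was 0.01. With the 5 undetected genes at their bound, as defined below for Erp27, it was -2.38. The 6 that did not pass include Bhlha15, a transcription factor that keeps acinar cells secretory (0.06 ± 0.06, averaged log2 difference ± SE, adjusted p = 0.67). Gnmt, a glycine methyltransferase, also stayed below the minimum fold at -0.39 ± 0.08 (adjusted p = 0.0092). The 14 genes that fell moved in the same direction as the set-aside enzymes, whose median difference was -3.7. Whether fewer acinar cells or less RNA per cell gave these values cannot be told apart in pooled tissue RNA, and the part of acinar carry-over in them was not tested.

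Gp2, a glycoprotein of the zymogen granule membrane, read 11.33, 11.35 and 11.06 on the WT_Chow arrays and 7.48, 7.51 and 6.86 on the SHPKO_Chow arrays (log2 intensity). On western diet its values were 11.36, 11.27 and 11.30 in WT and 7.41, 7.12 and 7.28 in SHPKO. All 6 SHPKO arrays lay more than 3 log2 units below all 6 WT arrays, and the averaged difference was -4.00 ± 0.11 (log2 ± SE, adjusted p = 1.9e-11). Sycn (syncollin), a granule protein that takes part in exocytosis, read 13.28, 13.36 and 13.13 in WT_Chow, 9.29, 9.34 and 9.05 in SHPKO_Chow, 13.94, 13.91 and 13.64 in WT_WD and 10.14, 10.02 and 9.79 in SHPKO_WD. Its WT and SHPKO arrays were again far apart, with an averaged difference of -3.94 ± 0.09 (adjusted p = 2.0e-12). Klk1, a tissue kallikrein whose probe may also read its near-identical Klk1b relatives, gave -4.17 on chow, -3.80 with western diet and -3.98 ± 0.09 on average.

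Other secretory proteins also fell. The averaged differences were -3.98 ± 0.12 for the trefoil peptide Tff2, -3.90 ± 0.12 for the granule lectin Zg16, -3.85 ± 0.10 for the scavenger receptor Dmbt1 and -3.68 ± 0.08 for Cuzd1, a zymogen granule membrane protein. Spink1, the trypsin inhibitor that guards against enzyme activation inside the gland, read 11.84, 11.76 and 11.73 in WT_Chow and 8.97, 8.88 and 8.15 in SHPKO_Chow. It stood at 11.92, 12.18 and 11.76 in WT_WD and at 8.68, 8.72 and 8.73 in SHPKO_WD. The genotypes did not overlap, and Spink1 differed by -3.18 ± 0.13 (adjusted p = 1.1e-09).

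Pdia2, a protein disulfide isomerase of the pancreas, fell by more on chow than on western diet. Its mean was 10.71 ± 0.28 in WT_Chow (SD, n = 3), with a lowest array of 10.45, and the SHPKO_Chow arrays read 7.60, 7.76 and 7.41, while WT_WD read 10.12, 10.38 and 10.23 and SHPKO_WD 7.93, 8.11 and 7.90. The difference was -3.12 ± 0.14 on chow and -2.27 ± 0.14 on western diet, with an interaction of 0.86 ± 0.20 (adjusted p = 0.043). It was the only 1 of the 14 acinar list genes with an interaction past the threshold. Erp27, an endoplasmic reticulum protein related to the disulfide isomerases, was undetected on all 6 SHPKO arrays (4.60 to 5.13) and read 7.59 to 8.09 on the 6 WT arrays. It was therefore at least 6.62-fold lower, measured against the dimmest detected probe on each array, as in every "at least" value here. Erp27 passed the detection filter only through the WT groups, so it is lower in SHPKO by selection.

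Transcription factors of the PTF1 complex were among the fallen genes. Rbpjl read 7.43, 7.48 and 7.71 in WT_Chow and 7.12, 7.17 and 6.96 in WT_WD, and was undetected in both SHPKO groups, at least 4.19-fold lower (adjusted p = 1.2e-09). Ptf1a read 5.93, 6.11 and 6.04 in WT_Chow and 5.79, 5.49 and 5.64 in WT_WD. On the SHPKO arrays it lay between 4.38 and 4.45 and was undetected, at least 1.5-fold lower. Aqp12, an aquaporin of acinar cells, was at least 2.20-fold lower, with WT values of 5.82 to 6.73 and no detection in SHPKO. Rbpjl, Ptf1a and Aqp12 passed the detection filter only through the WT groups, so they are lower in SHPKO by selection. Muc1, an apical mucin of ducts and acini, differed by -0.70 ± 0.07. That probe was undetected in SHPKO_WD, where it was at least 1.25-fold lower. Muc1 differed by -0.78 ± 0.11 and -0.38 ± 0.13 at its further probes, the last of which did not pass (adjusted p = 0.13 over all probes).

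**Figure D2:**
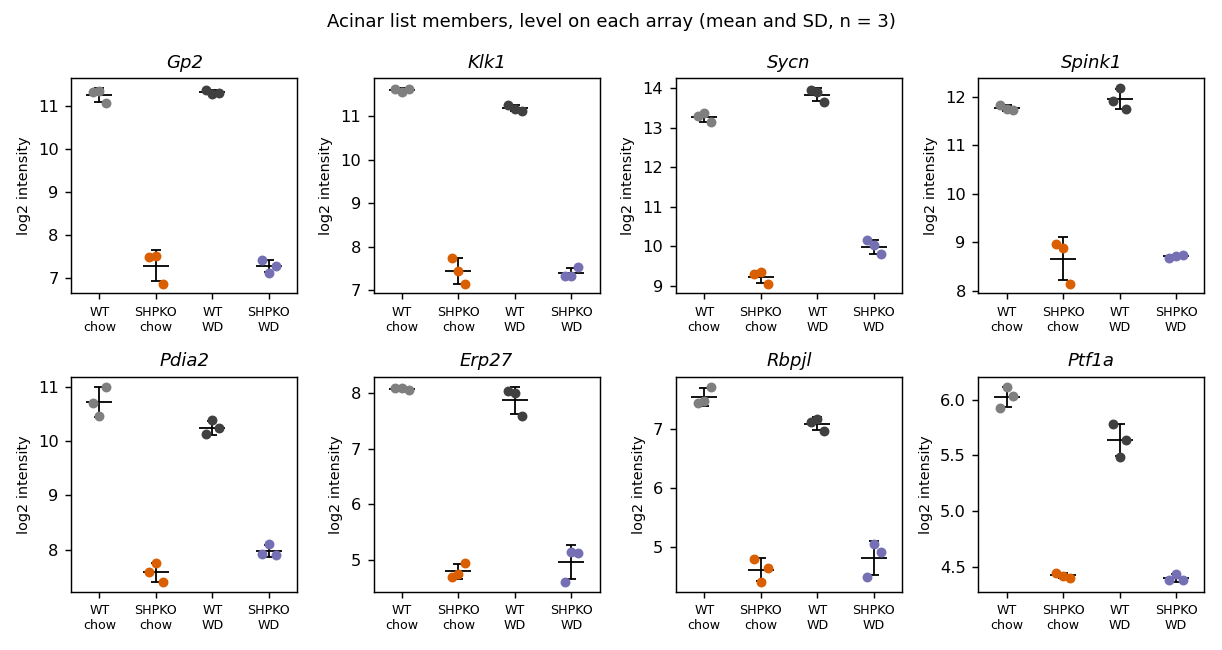
Log2 intensity (y axis) of 8 acinar list members on each array of the 4 groups (points), with the mean and SD (bars, n = 3). In all 8 panels the SHPKO arrays lie below the WT arrays on both diets; Erp27, Rbpjl and Ptf1a were undetected in SHPKO.

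Promoters are shown for members of this list because the PTF1 complex binds an E-box, searched here as CACCTG, at promoters of acinar genes. Its binding to the promoters of these members was not measured. Of the 14 genes, 9 had a promoter in RefSeq (250 before to 50 after the start, build GRCm38.p6). The letters CACCTG, on either strand, occurred in 5 of the 9 (55.6%, namely Aqp12, Rbpjl, Muc1, Klk1 and Pdia2), against 20.2% of all 32851 promoters. The share was 18.7% for promoters of genes tested, 29.7% for lower called members outside the acinar list and 19.3% for higher called members. These shares were not tested against each other. The box TTTCCC, also searched on both strands, occurred in 0 of the 9, against 25.2% of all promoters, and the nuclear receptor monomer site AAGGTCA in 1 of the 9 (11.1%; Klk1), against 4.72%. None of these motifs contains another. The promoters of Rbpjl (chr2:164402944-164403243, plus strand), Klk1 (chr7:44225110-44225409, plus strand) and Pdia2 (chr17:26199038-26199337, minus strand) follow, 5′ to 3′, with the E-box in capitals, which reads CAGGTG on the strand shown.
Rbpjl: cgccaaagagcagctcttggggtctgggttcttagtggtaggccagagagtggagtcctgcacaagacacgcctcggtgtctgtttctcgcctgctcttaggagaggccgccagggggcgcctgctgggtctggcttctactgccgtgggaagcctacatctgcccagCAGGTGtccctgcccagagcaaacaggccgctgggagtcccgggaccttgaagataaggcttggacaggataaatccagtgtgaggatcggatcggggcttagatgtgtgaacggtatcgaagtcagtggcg
Klk1: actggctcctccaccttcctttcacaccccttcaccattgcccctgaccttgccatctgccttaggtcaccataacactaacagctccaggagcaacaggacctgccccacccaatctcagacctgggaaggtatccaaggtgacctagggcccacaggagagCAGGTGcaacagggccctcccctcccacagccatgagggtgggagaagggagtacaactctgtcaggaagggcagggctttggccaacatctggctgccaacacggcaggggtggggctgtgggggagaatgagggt
Pdia2: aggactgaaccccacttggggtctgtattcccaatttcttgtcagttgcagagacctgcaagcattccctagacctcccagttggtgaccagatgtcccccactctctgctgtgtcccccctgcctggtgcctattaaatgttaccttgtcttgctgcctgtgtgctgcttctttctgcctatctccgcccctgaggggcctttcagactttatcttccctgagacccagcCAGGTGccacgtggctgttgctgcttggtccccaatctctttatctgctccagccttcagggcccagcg
These are matches of letters and not measured sites, and the 4 genes without a match in this window, Gp2, Sycn, Cuzd1 and Ptf1a, fell as well.

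Outside the acinar list, 29 genes passed on both diets, 7 higher and 22 lower. Among the lower ones Hamp2, a hepcidin, read 8.36, 8.30 and 7.86 in WT_Chow and 8.58, 8.46 and 7.91 in WT_WD. The SHPKO arrays lay between 4.67 and 5.26, with 0 of 3 detected on chow and 1 of 3 on western diet. Hamp2 was at least 7.74-fold lower on chow and measured 9.84-fold lower on western diet, though its probe may also read the closely related Hamp. Cabp2, a calcium-binding protein, was at least 2.02-fold lower and undetected in SHPKO on both diets. Cldn10, a tight junction claudin, was at least 2.60-fold lower, and Gamt, which completes creatine synthesis, at least 2.73-fold. Igf1, insulin-like growth factor 1, read 5.55 to 6.20 in WT and 4.86 to 5.30 in SHPKO. It was measured 1.95-fold lower on chow, where 1 of 3 SHPKO arrays detected it, and at least 1.42-fold lower on western diet, where 0 of 3 did. Hamp2, Cabp2 and Igf1 passed the detection filter only through the WT groups and are therefore lower in SHPKO by selection. Cldn10, Gamt and Igf1 lie outside the naming rule and were chosen after their values were seen.

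Gal, which encodes the neuropeptide galanin, fell on both diets to very unequal extents. It read 8.74, 8.79 and 8.83 in WT_Chow but only 5.90, 5.85 and 5.72 in WT_WD. On the SHPKO arrays it was undetected, at 4.65 to 4.98. It passed the detection filter only through the WT groups, so it is lower in SHPKO by selection. Galanin was at least 11.9-fold lower on chow and at least 1.47-fold lower on western diet, and the interaction was 2.93 ± 0.14 (log2 ± SE, adjusted p = 2.3e-07), a value that depends on the undetected levels. With pools as the replicates Gal did not pass (adjusted p = 0.59). The error of that fit is the difference between the diets, so its failure follows from the large interaction.

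A cluster of called genes lay on chromosome 4, which carries Nr0b2 itself. Of the 107 called members 20 (18.7%) were on this chromosome, which held 6.58% of the genes tested. Within 50 tested genes of Nr0b2 on either side, 13 of 100 genes were called members (13%), 9 lower and 4 higher, 9 of them on both diets. Within 100 genes on either side the count was 17 of 200 (8.5%). It was 3 of 384 (0.781%) on the rest of chromosome 4 and 1.05% on the other chromosomes, and these shares were not tested against each other. The order of genes is that of the RefSeq table of assembly GRCm38.p6. The region also holds Cela3b, Cela2a and Ctrc, 3 set-aside enzyme genes that fell.

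Gpn2, a GPN-loop GTPase, was the nearest tested gene on 1 side of Nr0b2. It read 8.96, 8.61 and 8.70 in WT_Chow, 6.96, 7.16 and 6.94 in SHPKO_Chow, 8.71, 8.84 and 8.75 in WT_WD and 7.08, 7.18 and 7.24 in SHPKO_WD. The genotypes did not overlap, and the averaged difference was -1.67 ± 0.07 (adjusted p = 4.3e-09). Gpn2 passed the additive limma fit of pools (adjusted p = 0.012). That result reflects similar differences on the 2 diets and not replication over pools or mice. Bsdc1, a BSD-domain protein 42 tested genes away, read 8.40 to 8.64 in WT_Chow, 7.12 to 7.26 in SHPKO_Chow, 8.74 to 8.99 in WT_WD and 7.20 to 7.49 in SHPKO_WD. Its averaged difference was -1.44 ± 0.08 (adjusted p = 2.9e-08), and it passed the fit of pools with the same limit (adjusted p = 0.018).

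Further members near Nr0b2 fell on both diets. Averaged differences were -1.57 ± 0.14 for Col16a1, a fibril-associated collagen, -1.23 ± 0.07 for Tcea3, a transcription elongation factor, and -0.95 ± 0.11 for the phospholipid scramblase Xkr8, which 1 of 3 SHPKO_Chow and 2 of 3 SHPKO_WD arrays detected. The RNA-binding protein Hnrnpr differed by -0.93 ± 0.10, and the ubiquitin ligase Trim62 was undetected in SHPKO and at least 1.88-fold lower. Xkr8 and Trim62 passed the detection filter only through the WT groups, so they are lower by selection. Members of the region that rose were Cap1, Pdpn, Ubr4, Cd164l2, Asap3, Cnr2 and Ahdc1. Of these, Pdpn, Asap3 and Cnr2 passed the detection filter only through SHPKO groups, so they are higher by selection. Cnr2 was undetected in both genotypes on chow. The count of 17 includes such genes and shares this limit. None but Cnr2, which encodes the cannabinoid receptor of immune cells, had an interaction past the threshold among the 17. Genes of this region other than Cap1, Pdpn and Cd164l2 are outside the naming rule and were chosen for their position after their values were seen. The count of 17 was 22 with median centring, 6 without background correction and 3 with pools as the replicates.

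**Figure D3:**
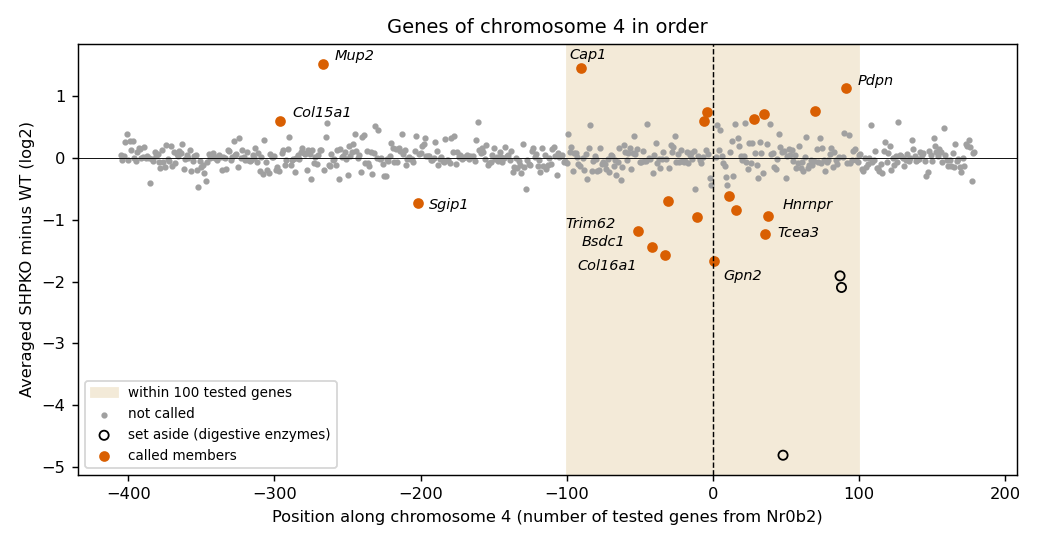
Averaged SHPKO minus WT difference (y axis, log2) of the tested genes of chromosome 4 in order, with the distance from Nr0b2 in tested genes (x axis); called members are orange, set-aside enzymes open circles, and the band spans 100 tested genes on either side. Within the band 17 of 200 genes are called members, and outside it 3 of 384.

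Fewer members passed on both diets in the higher direction. They were 7, namely Dcn, Cxcl13, Rgs2, Pdpn, Prelp, Cd164l2 and Ahnak, and 0.0789% of all genes tested did so in this direction. This count depended on the processing. It was 26 with median centring, against 32 lower, 3 without background correction, with the other normexp offset or with detection on all 12 arrays, 2 at a 2-fold minimum, 15 with none, and 4 without SHPKO_Chow replicate 2. Dcn (decorin), a small leucine-rich proteoglycan that binds collagen, read 7.24, 7.44 and 6.33 in WT_Chow and 8.71, 8.70 and 8.26 in SHPKO_Chow. On western diet it read 7.52, 7.10 and 7.02 in WT and 9.02, 8.86 and 8.81 in SHPKO. All 6 SHPKO arrays lay above all 6 WT arrays, and the rise was 1.62 ± 0.17 (log2 ± SE, adjusted p = 5.0e-05), with a difference between the diets of 0.13 (95% interval -0.61 to 0.88). Another Dcn probe rose by 0.73 ± 0.09.

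Prelp, a related matrix proteoglycan, read 5.39, 5.66 and 5.54 in WT_Chow, 6.63, 6.65 and 6.03 in SHPKO_Chow, 5.63, 5.02 and 5.20 in WT_WD and 6.11, 6.14 and 6.28 in SHPKO_WD. It rose by 0.90 ± 0.13 (adjusted p = 0.00068), with 0.91 and 0.89 on the single diets, and 1 of 3 WT_WD arrays detected it. Without background correction its rise was 0.43, below the minimum fold. Of 20 tested fibroblast, stellate cell and matrix genes, 2 rose (Dcn and Thy1), 0 fell and 18 did not pass. The list's median was 0.25, or 0.20 with 4 undetected genes at their bound. The summed signal of the list was 5360 to 5820 in WT_Chow and 6230 to 6990 in SHPKO_Chow, and 5590 to 6320 in WT_WD and 6380 to 6830 in SHPKO_WD. The defining fibroblast markers Col1a1, Col1a2, Col3a1 and Pdgfra were undetected in all groups. Thy1, a surface glycoprotein, rose by 0.64 ± 0.12, and its call was lost without WT_Chow replicate 3 or SHPKO_Chow replicate 2. Within the same list Gsn, an actin-severing protein, stood at -0.46 ± 0.11 and Igfbp5, a binding protein of insulin-like growth factors, at -0.39 ± 0.08, both under the minimum fold.

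Pdpn (podoplanin), a mucin-type glycoprotein of lymphatic endothelium, fibroblasts and other cells, lies 91 tested genes from Nr0b2. It read 4.74, 4.48 and 4.63 in WT_Chow and 5.15, 4.53 and 4.75 in WT_WD, undetected in both, against 6.09, 5.62 and 5.88 in SHPKO_Chow and 5.77, 5.66 and 6.04 in SHPKO_WD. The genotypes did not overlap and Pdpn was at least 1.43-fold higher, but a gene that passes the detection filter only through its bright group is higher by selection. Endothelial markers, 21 in all, had 0 past the threshold and a median of 0.15. Of them, 8 were members at an unadjusted p below 0.05 (limma), against 16% of all genes tested. Their summed signal was 15600 to 15800 in WT_Chow and 17100 to 17900 in SHPKO_Chow, and 15600 to 16400 in WT_WD and 15900 to 17100 in SHPKO_WD, so it was slightly higher in SHPKO on chow and overlapped on western diet.

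Cap1, an actin-binding, adenylyl cyclase-associated protein, read 8.80, 8.62 and 7.13 in WT_Chow, 9.86, 9.82 and 9.78 in SHPKO_Chow, 9.12, 9.02 and 7.91 in WT_WD and 10.03, 9.96 and 9.85 in SHPKO_WD. The WT arrays scattered widely (SD 0.92 and 0.67) and the SHPKO arrays did not (0.04 and 0.09). The rise was 1.45 ± 0.27 (adjusted p = 0.0058), past the threshold on chow but not on western diet alone (adjusted p = 0.086), although the 6 SHPKO arrays lay above the 6 WT arrays. The low WT_Chow replicate 3 and WT_WD replicate 3 were also the lowest WT arrays of their diet for Ubr4, Cacnb2 and Kcnq1ot1.

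Cxcl13, the chemokine that draws B cells into follicles, was undetected in WT, at 4.51 to 4.89 on chow and 4.57 to 4.78 on western diet. It read 6.03, 5.30 and 5.51 in SHPKO_Chow, where 2 of 3 arrays detected it, and 6.72, 6.82 and 6.89 in SHPKO_WD. It was at least 1.21-fold higher on chow and at least 2.82-fold higher on western diet, with an interaction of 1.17 ± 0.23 (adjusted p = 0.017). Cxcl13 passed the detection filter only through SHPKO_WD, so it is higher there by selection.

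**Figure D4:**
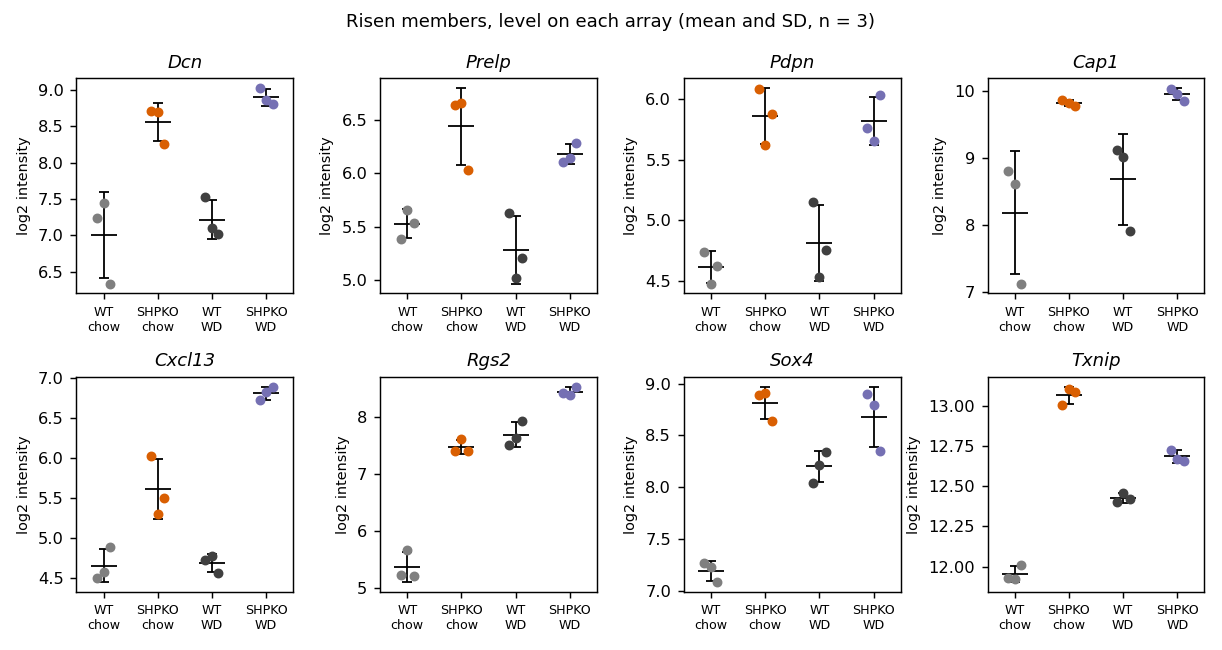
Log2 intensity (y axis) of 8 risen members on each array of the 4 groups (points), with the mean and SD (bars, n = 3). Dcn, Prelp, Pdpn and Cap1 are higher in SHPKO on each diet, Cxcl13 differs more on western diet, and Rgs2, Sox4 and Txnip more on chow, where their WT levels were lowest.

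Several rises came mainly from chow. Rgs2, a regulator of G protein signalling that activity induces rapidly, read 5.22, 5.66 and 5.20 in WT_Chow, 7.40, 7.61 and 7.39 in SHPKO_Chow, 7.51, 7.62 and 7.93 in WT_WD and 8.41, 8.38 and 8.53 in SHPKO_WD. Within each diet the genotypes did not overlap, as the naming rule required of the largest rises. WT on western diet nevertheless reached the level of SHPKO on chow. The rise was 2.11 ± 0.14 on chow and 0.75 ± 0.14 on western diet (interaction adjusted p = 0.0018). Sox4, a transcription factor of endocrine development, rose by 1.62 ± 0.14 on chow and differed by 0.48 ± 0.14 on western diet (adjusted p = 0.078). Txnip, the glucose-induced inhibitor of thioredoxin, read 11.93, 11.92 and 12.01 in WT_Chow, 13.01, 13.11 and 13.09 in SHPKO_Chow, 12.40, 12.46 and 12.42 in WT_WD and 12.73, 12.67 and 12.66 in SHPKO_WD. Its difference was 1.12 ± 0.08 on chow and 0.26 ± 0.08 on western diet, the interaction passed (adjusted p = 6.0e-04), and another probe gave 1.19 and 0.31.

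Of 20 tested immediate early genes, 3 members rose (Rgs2, Egr1 and Npas4) and 0 fell. Fos passed with opposite signs on the diets and is no member, and 16 did not pass. The list had a median of 0.38, or 0.52 on chow and 0.14 on western diet. Egr1, an activity-induced zinc finger factor, differed by 1.28 ± 0.10 on chow and 0.10 ± 0.10 on western diet (interaction adjusted p = 0.00054). Npas4, which depolarisation induces, differed by at least 1.73-fold on chow and by 0.05 ± 0.19 on western diet, and its averaged call was lost without WT_WD replicate 1. Of 35 tested genes of cyclic nucleotide and G protein signalling, Rgs2 and Pde5a, a cyclic GMP phosphodiesterase, rose. Pde5a rose by 1.67 on chow and stood at 0.02 on western diet, and its other kept probe gave an average of 0.04 ± 0.18, so the probes disagree.

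Rises that came from western diet were led by lymphocyte genes. Of 18 tested, 6 were called members (Cd79b, Mzb1, H2-Ob, Coro1a, Cd22 and Cd37), 0 fell, and the interaction passed for all 6. Cd79b, H2-Ob, Cd22 and Cd37 passed the detection filter only through SHPKO_WD, so they are higher on western diet by selection. The 0 falls and the list medians given below share this limit. The count of 6 was 2 with centring on the tested genes or with detection on each diet, both chosen after seeing the data. It was 3 without background correction, 1 with detection on all 12 arrays and 0 with pools as the replicates. The fit of pools takes the difference between the diets as its error, so genes with a large interaction tend to fail it. Another 4 of the 18 (Blk, Ccr6, Cd3d and Fcmr) passed with opposite signs on the diets and are no members. The list median was 0.74 averaged, -0.02 on chow and 1.40 on western diet. With 13 undetected genes at their bound (0 where neither genotype was measured) the values were 0.41, 0 and 0.95. The summed signal was 2530 to 2570 in WT_Chow, 2370 to 2590 in SHPKO_Chow, 3310 to 3630 in WT_WD and 6480 to 6840 in SHPKO_WD. Coro1a, an actin regulator of leukocytes that was detected on every array, read 6.60, 6.82 and 6.92 in WT_Chow, 6.95, 7.04 and 6.91 in SHPKO_Chow, 7.41, 7.48 and 7.41 in WT_WD and 9.33, 9.22 and 9.22 in SHPKO_WD. The genotypes overlapped on chow, and only SHPKO_WD stood apart.

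Cd79b, a signalling chain of the B cell receptor, was detected only in SHPKO_WD (7.79, 7.96 and 7.69) and read 4.34 to 5.02 on the other 9 arrays. It was at least 5.66-fold higher on western diet, and no fold is given on chow, where both groups were undetected. In all, 22 of the 60 higher genes were detected in SHPKO_WD alone, among them the B cell genes Cxcr5, Btla, H2-Oa and Tnfrsf13b and the liver-type urinary protein Mup2, whose paralogs are near-identical. Their sign on chow came from undetected signals. They passed the detection filter only through SHPKO_WD and are therefore higher on western diet by selection. Counting only genes detected on each diet left 75 called members, 35 higher and 40 lower.

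Progenitor genes gave 3 rises among 10 tested, with different patterns over the diets. Aldh1a3, a retinaldehyde dehydrogenase that marks dedifferentiated beta cells, rose. On western diet its probe was undetected in WT and at least 1.88-fold higher in SHPKO (adjusted p = 0.0015). The chow difference, 0.50 ± 0.18, did not pass (adjusted p = 0.23). Aldh1a3 passed the detection filter only through the SHPKO groups, so it is higher by selection. Neurog3, the transcription factor of endocrine progenitors, read 7.39, 7.02 and 6.80 in WT_Chow, 7.34, 7.15 and 7.10 in SHPKO_Chow, 6.08, 5.74 and 5.58 in WT_WD and 7.16, 6.74 and 6.95 in SHPKO_WD. Only WT_WD was low, so the averaged difference of 0.64 ± 0.12 rests on western diet (interaction adjusted p = 0.040), and it lost its call without WT_Chow replicate 3 or WT_WD replicate 3. Sox4, described above, was the chow-led member of the list.

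Beta cell identity and glucose sensing genes showed no shared change past the threshold. Of 21 tested, 0 passed (2 members at an unadjusted p below 0.05, limma, against 16% of all genes tested), and their median was 0.02. The averaged difference was -0.00 ± 0.06 for Ins2, -0.09 ± 0.08 for Gcg (glucagon) and 0.20 ± 0.06 for Sst (somatostatin, adjusted p = 0.11), on probes so bright that small differences may be compressed. Ppy, pancreatic polypeptide, differed by 0.58 ± 0.10 on chow and -0.50 ± 0.10 on western diet and is therefore no member. Dlk1, an imprinted Notch ligand of endocrine cells, fell by 0.66 on the log2 scale (SE 0.11). Its difference was -0.57 ± 0.15 on chow, which did not pass alone (limma adjusted p = 0.079), and -0.76 ± 0.15 on western diet. The call was lost without background correction, with normexp at an offset of 50, with median centring and with pools as the replicates.

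Known partners of SHP and bile acid genes gave 0 of 21 past the threshold (0 members at an unadjusted p below 0.05, limma), with a median of 0.02. Hnf4a stood at -0.02 ± 0.07 and Nr1h4, the bile acid receptor, at -0.08 ± 0.07. No member was called among 9 duct, 25 macrophage and antigen presentation, 28 cell cycle, 14 circadian, 36 unfolded protein response, 18 heat shock, 18 cholesterol synthesis, 19 fatty acid synthesis, 26 fatty acid oxidation and 47 oxidative phosphorylation genes, nor among 5 erythroid and 2 adipocyte genes. The circadian factor Arntl passed with opposite signs and is no member. Members of these lists with an unadjusted p below 0.05 numbered 2, 5, 4, 1, 6, 6, 1, 2, 5, 4, 1 and 1 in that order (limma). Of 44 interferon response genes Oas2, an antiviral RNA sensor, was the 1 that fell. It was undetected on chow and differed by -0.83 ± 0.17 on western diet. Oas2 passed the detection filter only through WT_WD, so its fall there is by selection. Its call was lost without WT_Chow replicate 3, SHPKO_Chow replicate 2, WT_WD replicate 1 or SHPKO_WD replicate 1. The remaining single called members were Mgst1, a microsomal glutathione transferase, which is in the lists of antioxidant genes and of genes kept low in beta cells, Cacnb2, a calcium channel subunit of the exocytosis list (0.78 ± 0.16), and Kcnq1ot1, an imprinted antisense transcript (0.76 ± 0.17). Mgst1 was measured 1.63-fold higher on chow, where 1 of 3 WT arrays detected it, and at least 1.17-fold higher on western diet, where 0 of 3 WT arrays did. Mgst1 passed the detection filter only through the SHPKO groups, so it is higher by selection. Cacnb2 differed by 1.23 ± 0.22 on chow and 0.32 ± 0.22 on western diet, and Kcnq1ot1 by 1.23 ± 0.24 and 0.29 ± 0.24. On western diet alone neither passed (limma adjusted p = 0.55 and 0.65). Kcnq1ot1 lost its call without SHPKO_Chow replicate 1, WT_WD replicate 2 or 3, or SHPKO_WD replicate 1 or 2. Mgst1 lost its call without WT_Chow replicate 3, SHPKO_Chow replicate 3, WT_WD replicate 3 or SHPKO_WD replicate 2, and another probe of Cacnb2 had the opposite sign (-0.29 ± 0.13).

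**Figure D5:**
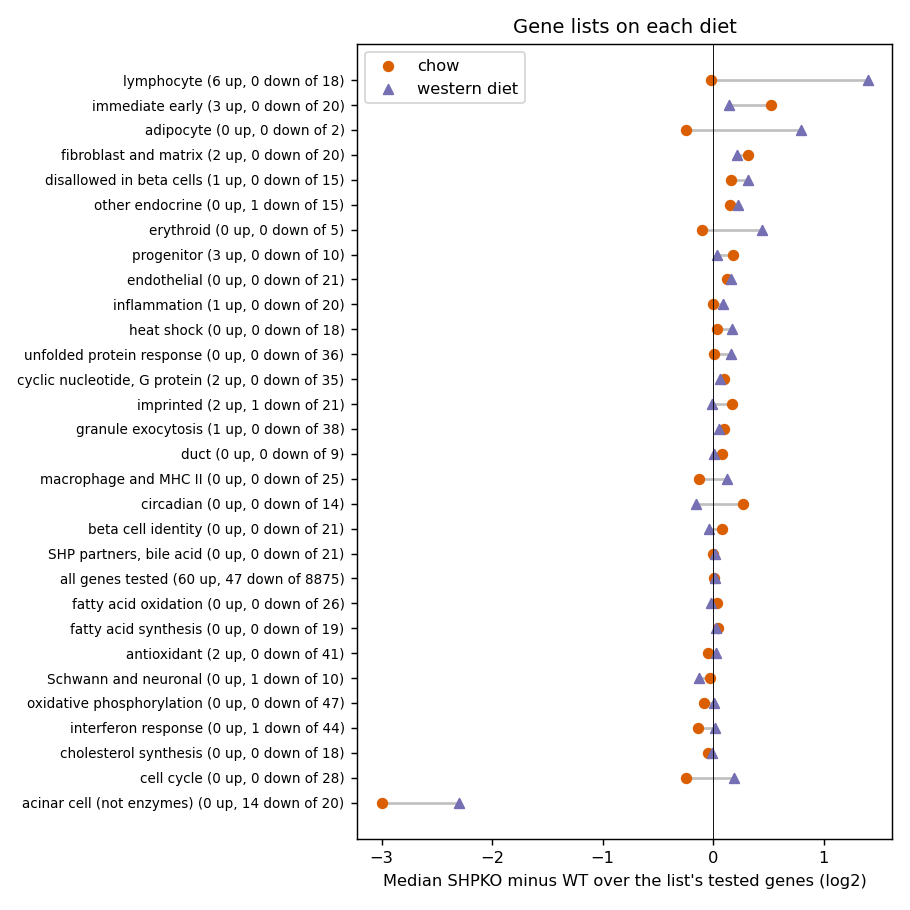
Median SHPKO minus WT difference (x axis, log2) over the tested genes of each list on chow (circles) and western diet (triangles), with called members higher and lower beside each name. The acinar list lies at -3.0 and -2.3 and the lymphocyte list at -0.02 and 1.40, while all genes tested lie at 0.01 and 0.02.

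The remaining genes of the naming rule rose modestly. Kcnc4, a voltage-gated potassium channel, rose by 0.69 ± 0.10 and Cd164l2, a sialomucin-like protein 4 tested genes from Nr0b2, by 0.74 ± 0.09. Crhbp, which binds corticotropin-releasing hormone, rose by 0.63 ± 0.11, with 1 of 3 WT_Chow arrays detecting it. It differed by 0.92 ± 0.15 on chow and 0.33 ± 0.15 on western diet, where it did not pass alone (limma adjusted p = 0.31). Its call was lost without WT_Chow replicate 1 or 3, SHPKO_Chow replicate 3 or WT_WD replicate 3. Rep15, a Rab15 effector, was at least 1.07-fold higher on chow, where it was undetected in WT, and measured 1.5-fold higher on western diet, where 1 of 3 WT arrays detected it. Rep15 passed the detection filter only through the SHPKO groups, so it is higher by selection. It lost its call without WT_Chow replicate 3, WT_WD replicate 3 or SHPKO_WD replicate 1. Col15a1, a basement membrane collagen (0.60 ± 0.15, adjusted p = 0.040), lost its call without WT_Chow replicate 3, SHPKO_Chow replicate 1 or 2, WT_WD replicate 2 or 3, or any 1 SHPKO_WD array. Pkp4, a junction plaque protein, rose by 0.60 ± 0.06 at its brightest probe, without WT_WD replicate 2 it fell below the minimum fold, and 1 further probe had the opposite sign. Over all called members, 21 had more than 1 kept probe; the probes shared a sign for 17 of the 21 and all passed for 7.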

How the data were processed

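The authors deposited 1 linear intensity per probe and array, not background-subtracted or normalized, and beside it a detection p-value against the negative controls, both from BeadStudio per the submitters' processing notes (version not given in the sources used here). A processed intensity table deposited by the authors served as an alternative. Which slide held which array is not stated there.

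The neqc function of limma 3.58.1, run in R 4.3.3 with an offset of 16, corrected the background, applied quantile normalization and took log2. Kept were 14756 of 45281 probes, those that every array of some group detected at a p-value below 0.01. Probes just inside that limit had a median log2 level of 5.47 and those just outside 5.43. The brightest of the named kept probes stood for a gene, with names from the platform annotation and RefSeq (34885 probes with 1 gene name, 18 with several, 10378 with none). limma fitted 4 group means with moderated variances (prior degrees of freedom 4.42), and Benjamini-Hochberg adjustment ran over all 8875 genes for the averaged difference, each diet and the interaction. A call needed an adjusted p below 0.05 and, except for the interaction, at least 1.5-fold. Where a gene was undetected in the dimmer group, the fold is a lower bound, with the dimmest detected signal of each array (5.07 to 5.48) as its floor. A gene that passed the detection filter through 1 genotype alone differs in that direction by selection. Arrays of 1 group correlated at 0.984 to 0.995 and arrays of different groups at 0.957 to 0.987, with 13821 to 16101 detected probes each. Tested on simulated data for the averaged difference over 8875 genes, the fit called 51 of 100 genes changed 1.5-fold, 99 of 100 changed 2-fold and 1 of 8675 unchanged genes. Genes changed exactly 1.5-fold lie on the minimum fold of a call, so the 51 is set by that cut-off and measures no sensitivity.

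The members and the 29 gene lists were chosen with earlier results of these data known. The naming rule took the 15 largest rises and 15 largest falls among called members with non-overlapping arrays and detection on each diet, up to 4 called members per direction of each list, and Nr0b2, Ins2, Gcg, Sst and Ppy. Alternatives changed the background correction, normalization, filter, probe choice, variance model, replicates and minimum fold.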

Additional observations from a re-analysis of the deposited data

Results flagged for a closer look

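The genotype difference of 15 named genes differed in size between the diets by the interaction test of limma (adjusted over all genes; western diet minus chow, log2 ± SE). It was larger in SHPKO on western diet for Cd79b (3.12 ± 0.24, adjusted p = 1.0e-05), H2-Ob (1.83 ± 0.13), Mzb1 (1.78 ± 0.17), Coro1a (1.64 ± 0.13), Cxcl13 (1.17 ± 0.23) and Neurog3 (1.02 ± 0.23, adjusted p = 0.040). Genes that rose more on chow were Pde5a (-1.65 ± 0.23), Rgs2 (-1.36 ± 0.20), Egr1 (-1.18 ± 0.15), Npas4 (-1.17 ± 0.27), Sox4 (-1.14 ± 0.20) and Txnip (-0.86 ± 0.11). Gal (2.93 ± 0.14) and Pdia2 (0.86 ± 0.20) fell more on chow. Ppy (-1.08 ± 0.14, adjusted p = 0.00082) differed in opposite directions on the diets. The values of Cd79b, H2-Ob, Mzb1, Cxcl13, Npas4 and Gal include undetected levels, so their size depends on the background.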

How the results depend on the processing

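Of the 107 called members, 60 higher and 47 lower, with 43 on both diets and 38 with an interaction, the counts that moved by over 1.5 times are given in that order. Without background correction they were 39, 15, 24, 23 and 17. With normexp at an offset of 50 they were 53, 23, 30, 26 and 22, and with genes detected on all 12 arrays 35, 19, 16, 17 and 5, where fewer genes were tested (7810). Median centring gave 180 called members and 143 higher, of which 95 were among the 107. Among alternatives chosen after seeing the data, centring on the tested genes gave 32 higher and 16 with an interaction, and detection on each diet gave 35 higher and 15 with an interaction. With pools as the replicates 21 members passed, 2 higher and 19 lower, all 21 among the 107. That fit takes the difference between the diets as its error and so favours genes with equal effects on both. No minimum fold gave 363, 234 and 129, and a 2-fold minimum 41, 13, 28 and, on both diets, 25. Apart from these constructions, the cause was not tested. The authors' processed values, the mean of kept probes, no filter, other variances, and set-aside probes left out before normalization kept all 5 counts within 1.5 times. Leaving out 1 array gave 97 to 123 called members (50 to 71 higher, 45 to 54 lower), 38 to 46 on both diets and 31 to 40 with an interaction. None of 44 named called genes changed sign in any setting, and 24 kept their call in every setting that tested them other than pools, the minimum folds and detection on each diet. A fit with the replicate number as a block gave 108 called members (61 higher), 46 on both diets and 40 with an interaction. The numbers are not known to pair arrays: of 18 same-numbered pairs 11 had correlated deviations above 0.1 (-0.035 to 0.54), and 10 of 12 arrays matched their own number best. Slide as a block was not run, since no slide is given. Array number and signal over background limit precision: 54 called members were undetected in at least 1 group.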

Other observations

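Genes with opposite signs on the diets could still pass the averaged test, and 21 did, all of them higher. All but Fos came from western diet. Fcmr, the Fc receptor of IgM, differed by -0.12 on chow and 3.16 on western diet (log2), the chemokine receptor Ccr6 by -0.10 and 2.10, the B cell kinase Blk by -0.01 and 1.67 and the T cell receptor chain Cd3d by -0.01 and 1.40. Fcmr, Ccr6, Blk and Cd3d passed the detection filter only through SHPKO_WD, so they are higher there by selection. Arntl, a core clock factor, differed by -0.03 and 1.23. Fos, an immediate early gene, differed by 1.41 on chow and -0.14 on western diet.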
